A study of Mus musculus with 4 samples.

Results

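Collagens are the main structural proteins outside cells, built from chains that wind in sets into a triple helix. Fibril-forming chains such as those of types I and III make the tensile fibres of connective tissue, type IV chains make the sheet-like network of basement membranes, and the remaining chains decorate fibrils, form beaded filaments or span the cell membrane. Each islet of the pancreas is threaded by capillaries whose basement membrane borders the beta cells, and beta cells are known to rely on endothelial cells for much of it. Collagen messenger RNAs are among the classic targets of the miR-29 microRNAs, which pair through their seed with sites in 3' untranslated regions (UTRs) and lower the RNA or its translation.

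The members described here are all 44 protein-coding genes of the table whose symbol is Col, a number, a and a number, out of 54532 genes, 22046 of them protein coding. The donors were male C57BL/6 mice, 10 to 12 weeks old, and RNA came from their whole islets. Wild-type mice gave 2 libraries (wild type 1 and 2), and mice overexpressing miR-29a and miR-29b-1 in a pancreatic beta cell specific manner gave 2 (transgenic 1 and 2); the other islet cells carry no transgene expression by this design. The labels name no promoter for the transgene and do not say whether a library was 1 mouse or a pool, so p-values measure the spread of these libraries alone, and that spread may be technical. Levels are in FPKM, fragments counted per kilobase and per unit of depth, from which the whole reads could be recovered. Where 4 values follow each other, the first pair are wild type 1 and 2 and the second pair transgenic 1 and 2.

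Depth was similar across the libraries, from 21670854 to 27080907 reads in genes. Libraries that share a number lay together: at a limma adjusted p under 0.05, 2630 of 12716 genes differed between numbers 1 and 2 (20.7%) and 0 between genotypes (0.0%), so each collagen result is also given within each number. The transgene could not be read at its own loci, where Mir29b-1 was without a read (0 in each library) and only wild type 2 had any at Mir29a, 3 in number. All 8 beta cell markers, among them the insulin genes, were high enough to be compared. In such whole-islet RNA, fewer cells of a type and less RNA per cell cannot be told apart.

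The mature miR-29 sequences, from RefSeq on GRCm38, are shown because the family shares the seed that collagen sites pair with. Capitals mark the seed, bases 2 to 8.
miR-29a-3p: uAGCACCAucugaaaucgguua
miR-29b-3p: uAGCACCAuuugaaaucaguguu
miR-29c-3p: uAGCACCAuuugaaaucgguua
All carry the same seed, and the transgene holds the first and second of them. Its match in a messenger RNA reads TGGTGCT, or TGGTGCTA with an A opposite the first base of the microRNA (an 8-base match). The 3' UTRs of the longest annotated coding transcripts were searched on the transcript strand only. The shorter form GGTGCTA, with that A but without the leading T, is also a known kind of site. It was not counted as a match here and is not printed below.

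Collagen 3' UTRs were rich in these letters. Of the 44 chains, 25 (56.8%) held at least 1 match, against 13.3% of the 20617 protein-coding genes with a 3' UTR. At least 2 matches were held by 11 chains (25.0%, against 2.06% of protein-coding genes), and an 8-base match by 16 (36.4%, against 2.90%). The median 3' UTR was 1032.5 bases in the chains and 989 in protein-coding genes, so length was similar. A match is a description of the letters and was not tested for pairing.

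The sites of the 5 abundant chains that hold a match, and of the type I chain Col1a1 and the type IV chain Col4a5, are shown on GRCm38, each as the 30 bases of the transcript that end with the match, which is in capitals. Each lies in the 3' UTR of its gene.
Col4a1, chr8:11199761-11199790, minus strand: cgcctctgccaccgtcacaacaTGGTGCTA
Col4a2, first site, chr8:11448336-11448365, plus strand: gcagctgtgtgggaaggccacgtTGGTGCT
Col4a2, second site, chr8:11448507-11448536, plus strand: ggcatgcgccaccacacccagctTGGTGCT
Col15a1, chr4:47312478-47312507, plus strand: aagtcaaatccaatccacatatTGGTGCTA
Col27a1, chr4:63333897-63333926, plus strand: gctacctcccactgtgaaatcgcTGGTGCT
Col3a1, chr1:45348960-45348989, plus strand: ttccaacttcaaaatgtctcaaTGGTGCTA
Col1a1, chr11:94952516-94952545, plus strand: gggtggggtgggaaggaatttcTGGTGCTA
Col4a5, first of 3 sites, chrX:141688231-141688260, plus strand: cctttaccactgctcccaccaaTGGTGCTA
The flanks differ between chains while the match does not. Col4a5 held 3 matches of 8 bases, the most of any chain, and Col4a3, Col5a1 and Col26a1 held the most matches of any kind, with 4 each. Col6a6, Col13a1, Col11a2, Col20a1 and Col9a2, which lie among the 10 most abundant chains, held none.

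Ranked by mean FPKM, islet collagen RNA was led by a basement membrane pair. Only Col4a1 had a mean above 10 FPKM, 3 chains were above 5, 10 above 1 and 29 above 0.1. The top 3 chains made up 58.5% of the summed collagen FPKM and the top 10 made up 84.5%. All collagens together took 0.0375% (0.0367 to 0.0383), 0.0378% (0.0371 to 0.0386), 0.0486% (0.0477 to 0.0495) and 0.0421% (0.0413 to 0.0430) of reads, where the ranges are Clopper-Pearson 95% intervals and cover counting error only. Both transgenic shares lay above both wild-type shares. Ins2 alone took 20.1%, 26.6%, 12.8% and 25.5% of reads, and of the reads outside Ins2 the collagens took 0.0469%, 0.0516%, 0.0557% and 0.0565%. The summed collagen FPKM was 49.7, 52.9, 59.7 and 58.0, again without overlap, with the transgenic sum 1.20 and 1.10 times the wild-type one within numbers 1 and 2. The deposited FPKM were also scaled in a way the sources used here do not state: they imply totals of 1.01, 0.957, 1.09 and 0.970 times the recovered reads.

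**Figure D1:**
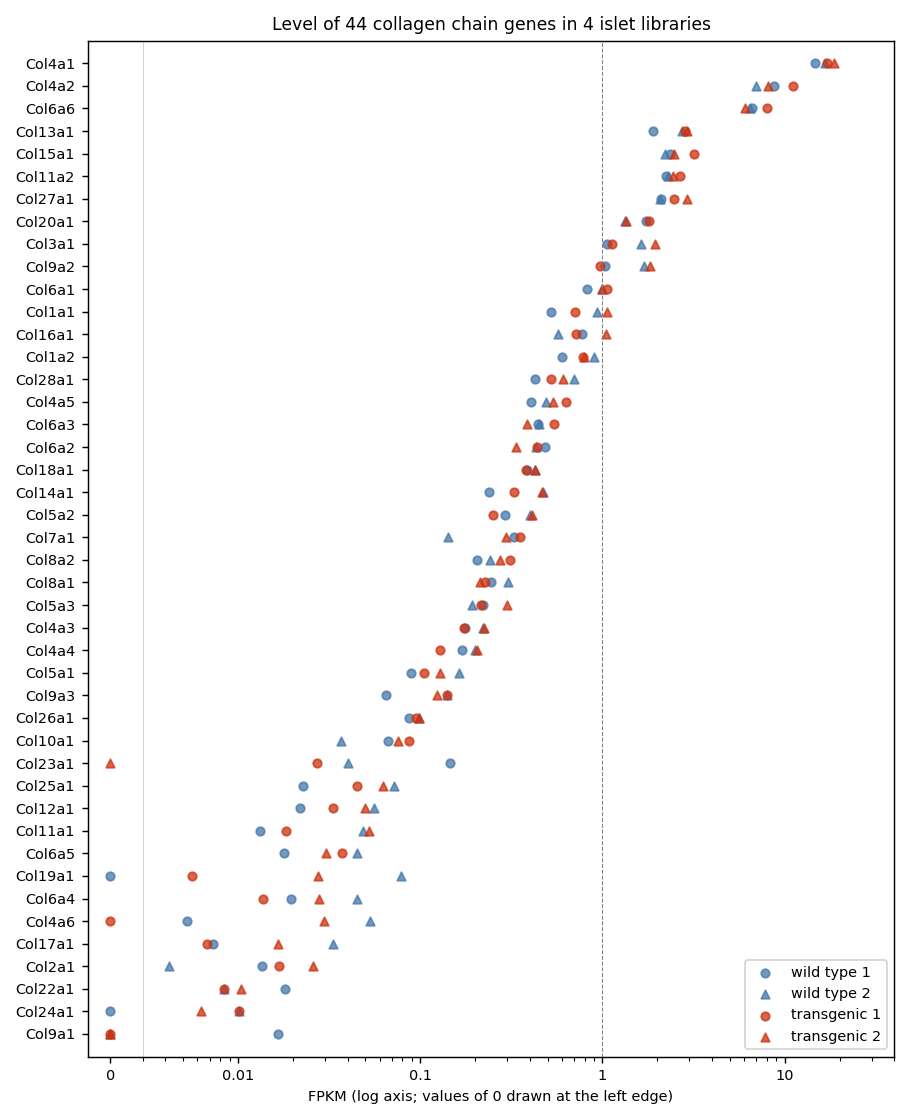
FPKM (horizontal log axis, values of 0 drawn at the left edge) of each of the 44 collagen chain genes, ordered by mean; blue is wild type, red is transgenic, circles are number 1, triangles are number 2, and the dashed line is 1 FPKM. Col4a1, Col4a2 and Col6a6 hold ranks 1, 2 and 3 in every library, and 10 chains have a mean above 1 FPKM.

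Col4a1 (ENSMUSG00000031502, chr8:11198423-11312826, minus strand), which with Col4a2 makes the common type IV helix, had 14.7, 16.6, 17.0 and 18.6 FPKM, or 15.6 ± 1.36 in wild type and 17.8 ± 1.08 in transgenic islets (SD, n = 2 each). Both transgenic libraries lay above both wild-type ones, and the chain held rank 1 in each. Col4a2 (ENSMUSG00000031503, chr8:11312805-11449287, plus strand) had 8.69, 6.93, 11.1 and 8.15 FPKM, or 7.81 ± 1.24 and 9.64 ± 2.12 (SD, n = 2 each). Its genotypes overlapped, and it was higher in number 1 than in number 2 in both genotypes. The levels of Col4a1 exceeded those of Col4a2 without overlap, by 1.69, 2.39, 1.53 and 2.28 times.

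The pair starts head to head on opposite strands, and the first exons overlap by 22 bases. These are shown in capitals on the plus strand, chr8:11312801-11312830, because the most abundant chains begin there.
Col4a1 and Col4a2 start: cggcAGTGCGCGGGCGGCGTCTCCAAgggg
In the RefSeq window of 300 bases around the Col4a2 start, from 250 before to 50 after it (GRCm38), GC content was 73.7%, against a median of 52.7% over all 32851 such windows. The TATA box TATAAA occurred 0 times on either strand (13.6% of windows hold it), CCAAT 1 time (37.4%) and the GC box GGGCGG 3 times (35.7%). The other type IV genes are paired in the same way, with 71 bases between Col4a3 and Col4a4 and 1308 between Col4a5 and Col4a6. Levels within a pair could lie far apart: mean FPKM was 1.13-fold higher for Col4a3 than Col4a4, whereas Col4a5 had 65, 85, 109 and 76 reads and Col4a6 had 1, 11, 0 and 5.

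The other type IV chains were scarce. Col4a5, from the network of the kidney filter and other specialised membranes, had 0.405, 0.488, 0.629 and 0.538 FPKM. Both transgenic values were above both wild-type ones. Col4a3 had 0.177, 0.221, 0.175 and 0.224 FPKM and Col4a4 had 0.170, 0.200, 0.128 and 0.206, with overlapping genotypes in both. The reads of Col4a6 were too few to compare genotypes, and 0 reads allows up to 3.

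Col6a6, a type VI chain that can stand in for Col6a3 in the beaded filament, ranked 3 in every library with 6.59, 6.43, 7.99 and 6.03 FPKM. It lay above Col13a1 without overlap, and its genotypes overlapped. It exceeded Col6a1, a core chain of type VI, by 8.01, 6.46, 7.52 and 6.03 times. Its neighbour on chromosome 9, Col6a5, lies 27917 bases away and had 4, 11, 9 and 6 reads only. Col6a1 itself had 0.823, 0.995, 1.06 and 1.00 FPKM, and Col6a2 and Col6a3, the other core chains, had means of at most 0.465 FPKM in either genotype.

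Around 2 FPKM lay 4 chains whose ranges over the libraries overlapped, so their order is not resolved. Col13a1, a transmembrane collagen of cell contacts, had 1.89, 2.74, 2.85 and 2.92 FPKM. Col15a1, which links basement membranes to the fibrils beneath, had 2.36, 2.19, 3.19 and 2.47. Both had each transgenic value above each wild-type value, and wild type 1 stood apart as the lowest for Col13a1.

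The fibril-forming Col11a2 had 2.23, 2.28, 2.67 and 2.43 FPKM, and Col27a1, a fibril-forming chain of cartilage, had 2.09, 2.06, 2.48 and 2.92. Neither overlapped between genotypes. Col27a1 lay above the next chain, Col20a1, without overlap. The fibril-associated Col20a1 (1.73, 1.34, 1.81 and 1.35 FPKM) and Col9a2 (1.03, 1.68, 0.965 and 1.81 FPKM) followed libraries by number, the first higher in number 1 and the second in number 2.

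The interstitial fibril chains were low in these islets. Col3a1, the single chain of type III, had 1.05, 1.63, 1.13 and 1.94 FPKM, higher in number 2 in both genotypes. Col1a1 and Col1a2, which together make the type I helix, had 0.523, 0.929, 0.703 and 1.06 and 0.597, 0.900, 0.784 and 0.797 FPKM. Their FPKM ratio was 0.877, 1.03, 0.898 and 1.33. FPKM divides by the deposited gene length, here 6563 and 12426 bases, so levels and ranks compared between chains depend on it. In reads the ratio of Col1a1 to Col1a2 was 0.463, 0.545, 0.474 and 0.702. Col1a1 was higher in both transgenic libraries than in the wild-type library of the same number, whereas Col1a2 was so in number 1 alone.

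The remaining chains included Col16a1, a fibril-associated chain at 0.770, 0.571, 0.718 and 1.05 FPKM, with transgenic 2 the highest. The cartilage chain Col2a1 had 5 reads at most in any library, and Col9a1 had 2 reads in wild type 1 and 0 elsewhere. In all, 33 chains had at least 10 reads in at least 2 libraries. The other 11 (Col10a1, Col23a1, Col6a5, Col19a1, Col6a4, Col4a6, Col17a1, Col2a1, Col22a1, Col24a1 and Col9a1) had 20 reads at most in any library, and these depths give little power to tell groups apart. By FPKM, only Col23a1 among them, a transmembrane chain, was lower in both transgenic libraries than in both wild-type ones, at 20, 6, 4 and 0 reads. Col10a1 (5, 3, 7 and 5 reads) and Col2a1 (3, 1, 4 and 5 reads) were higher in the same sense. Such reads are too few to compare genotypes.

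Summed by class, type IV took the largest share, 48.5%, 46.3%, 48.8% and 47.8% of collagen FPKM. Its sum was 24.1, 24.5, 29.1 and 27.7 FPKM, or 24.3 ± 0.262 in wild type and 28.4 ± 0.994 in transgenic islets (SD, n = 2 each), without overlap. The fibril-forming sum was 7.12, 8.63, 8.38 and 10.1 FPKM, or 7.88 ± 1.06 and 9.23 ± 1.20 (SD, n = 2 each), and overlapped. Within numbers 1 and 2 the transgenic library was 1.21 and 1.13 times the wild-type one for type IV and 1.18 and 1.17 times for fibril-forming chains.

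**Figure D2:**
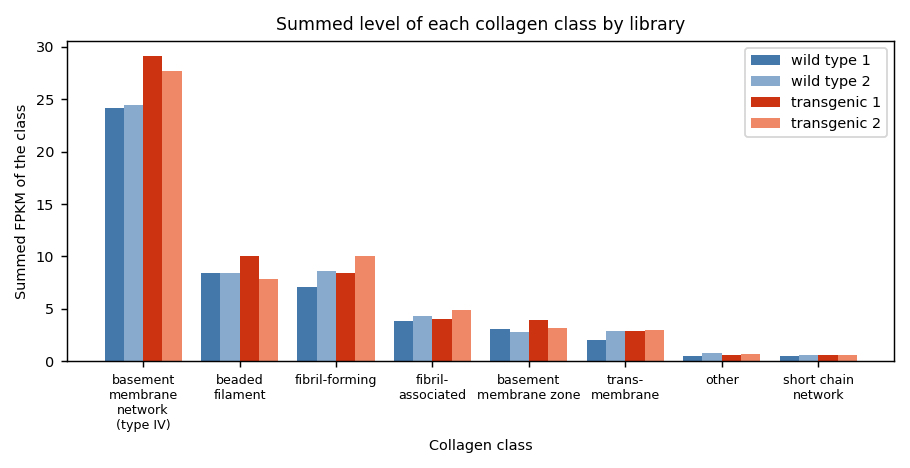
Summed FPKM (vertical axis from 0) of each collagen class in each library, 1 bar per library, blue for wild type and red for transgenic. Type IV stands at 24.1 to 29.1 FPKM and the fibril-forming chains at 7.12 to 10.1 FPKM.

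The balance of basement membrane network to fibrils differed less between genotypes than between library numbers. Type IV over fibril-forming FPKM was 3.38, 2.84, 3.48 and 2.75, higher in number 1 in both genotypes. The transgenic over the wild-type mean ratio was 1.00 over both numbers, 1.03 within number 1 and 0.969 within number 2. Against types I and III alone the ratio was 11.1, 7.07, 11.1 and 7.29. In reads, which are not divided by gene length, type IV over fibril-forming was 2.51, 2.14, 2.57 and 2.04. No test was run on these sums, since 2 libraries against 2 allow no exact permutation p below 0.333.

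The genotype test asked whether any chain differed between islets with and without the transgene. It used log2(FPKM + 1) and genes with at least 1 FPKM in at least 2 libraries, which 10 chains met, each of them in both wild-type libraries. No chain passed limma's Benjamini-Hochberg threshold of 0.05 (0 of 10, and 0 of 10 at unadjusted p under 0.05), beside 0 of all 12716 genes (0.0%, with 83 at unadjusted p under 0.05), and 0 genes passed in voom on reads (32 unadjusted). With library number as a term, voom called 238 genes and 1 of the 10 chains, Col27a1 (0.38 ± 0.10, adjusted p = 0.0460). In that fit 2040 genes and 5 chains had an unadjusted p under 0.05. With the same term limma called 0 genes and 0 chains, with 1360 genes and 2 chains at unadjusted p under 0.05. On this scale Col4a1 differed by 0.18 ± 0.15 (log2, SE, 95% interval -0.22 to 0.58) and Col4a2 by 0.27 ± 0.21 (-0.29 to 0.82). Col27a1 differed by 0.26 ± 0.14 (-0.11 to 0.64), Col13a1 by 0.24 ± 0.18 and Col15a1 by 0.22 ± 0.16. Col11a2 had 0.12 ± 0.13, Col3a1 0.11 ± 0.25, Col6a6 0.082 ± 0.17, Col20a1 0.027 ± 0.19 and Col9a2 0.012 ± 0.27. The limma adjusted p was 1.00 for each of them. The residual spread of this test includes the difference between numbers 1 and 2. A p above the threshold does not show equal levels: the interval of Col4a2 still holds differences of up to 0.82.

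The signs of the 10 estimates were all positive, and no chain was lower in both numbers. Their median log2 fold change was 0.15, against 0.012 over all genes tested, of which 6780 of 12716 were positive. Transgenic FPKM was higher in both numbers for 8 of 10 chains (33.5% of all genes tested) and higher without overlap for 5, namely Col4a1, Col13a1, Col15a1, Col11a2 and Col27a1 (12.2% of all genes tested). Within number 1 the median was 0.19 and within number 2 it was 0.096.

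Over the 33 chains with at least 10 reads, the median log2 ratio of mean transgenic over mean wild-type FPKM was 0.18. For all 16900 genes with such reads it was 0.0057. Single chains differed in direction. Transgenic FPKM was higher in both numbers for 14 (30.9% of the 16900 genes with such reads), lower in both for 3, Col6a2, Col18a1 and Col8a1 (28.0%), and of unlike direction for 16. By role, 3 of 5 type IV chains and 5 of 9 fibril-forming chains were higher in both numbers, and 0 of either class lower. The largest within-number gap of a basement membrane zone chain was in Col7a1, which anchors epithelium: it had 0.326, 0.142, 0.354 and 0.296 FPKM, with wild type 2 standing low. Without overlap between genotypes, 8 of the 33 chains were higher in transgenic islets, beside 1988 of the 16900 genes. Lower without overlap was 1 chain, beside 1730 of the 16900 genes. It was Col8a1, a short chain of vessel walls, at 0.246, 0.305, 0.228 and 0.213 FPKM.

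**Figure D3:**
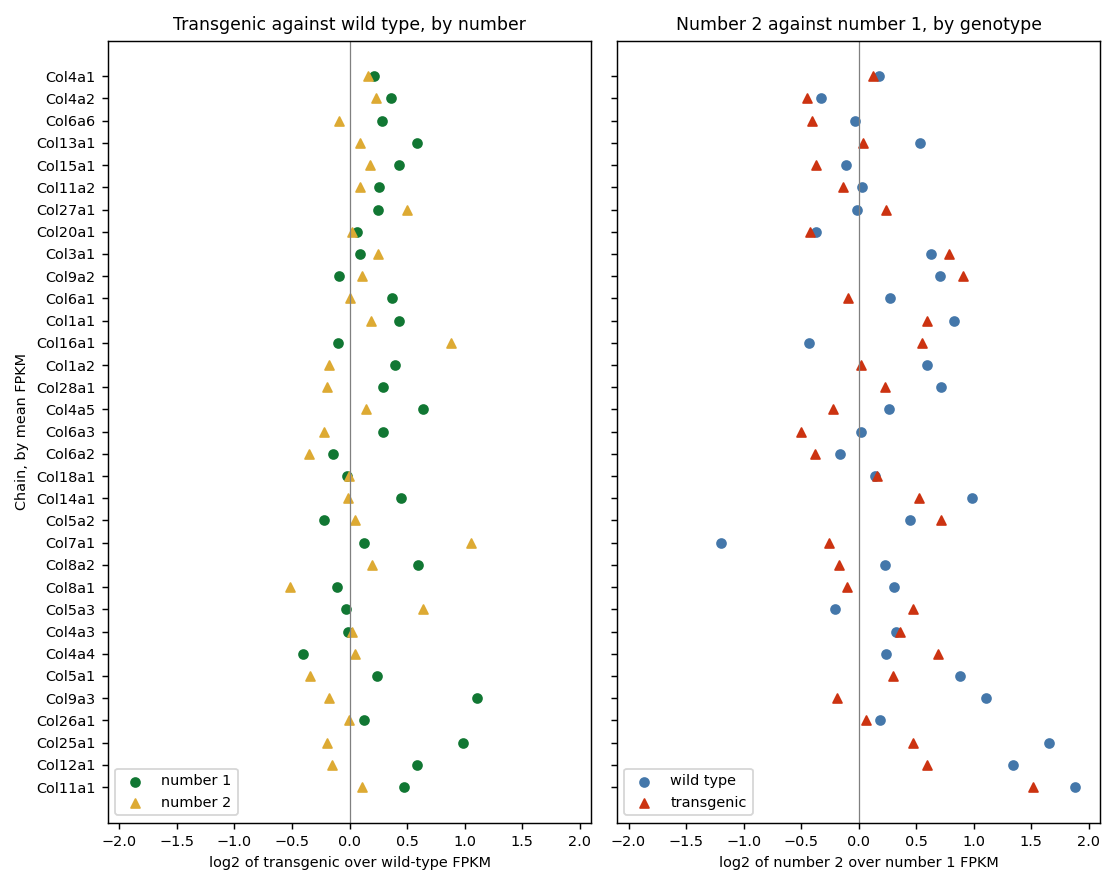
Log2 FPKM ratios of the 33 chains with at least 10 reads in at least 2 libraries: on the left transgenic over wild type within number 1 (green circles) and number 2 (yellow triangles), on the right number 2 over number 1 within wild type (blue circles) and transgenic islets (red triangles). On the left 14 chains have both points above 0 and 3 have both below; on the right 15 chains are higher and 5 lower in number 2 without overlap.

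Several estimates shifted with the library left out or with a GC correction, and the cause was not tested. Without transgenic 1 the limma value was -0.096 for Col6a6 and -0.10 for Col20a1, without wild type 2 it was -0.085 for Col20a1, without wild type 1 it was -0.074 for Col3a1 and -0.19 for Col9a2, and without transgenic 2 it was -0.13 and -0.25 for these. Leaving out each library in turn gave 0.096 to 0.26 for Col4a1, 0.061 to 0.47 for Col4a2, 0.056 to 0.43 for Col13a1 and 0.084 to 0.35 for Col15a1, the lowest without wild type 1 for Col4a1 and Col13a1 and without transgenic 1 for Col4a2 and Col15a1. The compared chains had a median GC content of 58.4%, against 49.7% over all genes tested, and with a GC curve removed from each library, in voom with library number as a term, the median of the chains was 0.054, with 7 of 10 positive, and Col4a1 stood at 0.015 and Col4a2 at 0.074. Before the curve was removed, that fit had a median of 0.19, with 10 of 10 positive, Col4a1 at 0.19 and Col4a2 at 0.30.

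Sites and differences were set side by side, since the known action of miR-29 is to lower the RNAs it pairs with. Among the 33 chains, the 20 with at least 1 seed match had a median log2 ratio of mean transgenic over mean wild-type FPKM of 0.19 (range -0.32 to 0.47), and the 13 without a match had 0.11 (-0.014 to 0.40). Of the 20, 9 were higher in both numbers and 2 lower, Col6a2 and Col8a1. Of the 13, 5 were higher and 1, Col18a1, lower. Col1a2 and Col6a1, counted among the 13, held the shorter form GGTGCTA. Col4a5, with 3 matches of 8 bases, was higher in transgenic islets within both numbers, by 1.55-fold and 1.10-fold. Among all tested protein-coding genes, 31.0% of 1663 with a match were lower in both numbers and 26.4% of 9031 without one, with medians of 0.0082 and 0.023. Of 240 with at least 2 matches 38.3% were lower in both numbers (median -0.0096), and of 346 with an 8-base match 34.7% were (median -0.0059). Genes with and without a match were not matched for 3' UTR length or GC content, and the cause of these differences was not tested. No list test was run on these counts.

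**Figure D4:**
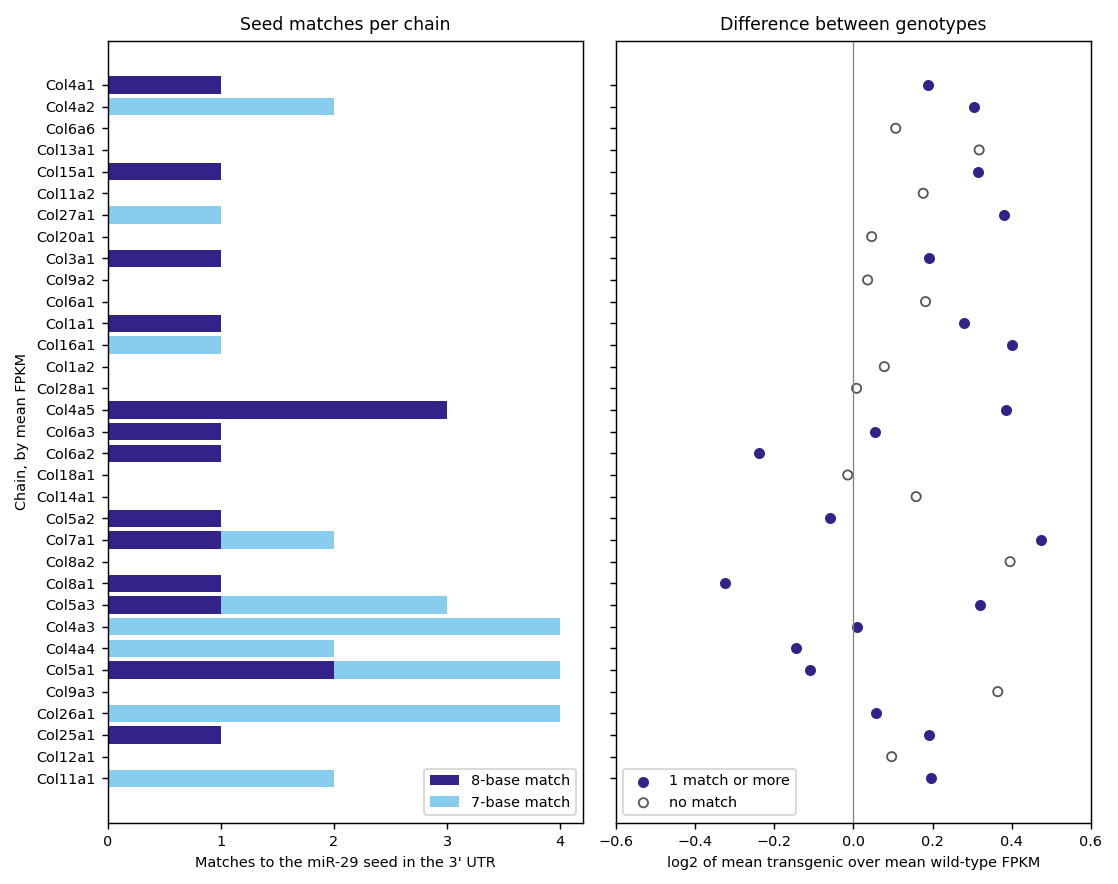
Left, number of seed matches in the 3' UTR of each of the 33 chains with at least 10 reads in at least 2 libraries (dark, 8-base; light, 7-base); right, log2 of mean transgenic over mean wild-type FPKM, filled for chains with a match. Chains with a match range from -0.32 to 0.47 and those without from -0.014 to 0.40, and most points of both kinds lie above 0.

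Markers of other islet cells were set beside the collagens. Of 8 endothelial markers, which capillary cells express, all were compared, 4 were higher in transgenic islets within both numbers and 0 lower. Their summed FPKM was 92.4, 76.2, 115 and 91.5, so the transgenic sum was 1.24 and 1.20 times the wild-type one within numbers 1 and 2. The largest share came from Plvap, a diaphragm protein of fenestrated capillaries, at 45.4, 35.3, 66.0 and 46.3 FPKM. Without Plvap the sum was 47.0, 40.9, 48.7 and 45.2 FPKM, 1.04 and 1.10 times within the numbers. For stellate cells and pericytes, which make fibrils, 3 of 8 markers were compared and the sum was 33.4, 32.8, 29.6 and 30.7 FPKM. Most of that sum was Rgs5, at 24.3, 25.0, 20.3 and 23.3 FPKM. Acinar markers were higher within both numbers for 8 of 8, at 1.36 and 1.78 times. The sum of 8 beta cell markers was 0.675 and 0.945 times, with 2 higher (Mafa and Nkx6-1) and 4 lower in both numbers. Most of this sum was Ins2, at 152363, 211742, 89340 and 200260 FPKM, so it mainly follows that gene. Of 8 macrophage markers 1 was higher and 5 lower in both numbers, and their sum was 1.04 and 0.847 times. The duct sum was 0.910 and 1.19 times and the Schwann cell sum 0.946 and 1.24 times. No marker of these lists was at 0 in all libraries, although Pdgfra was at most 0.114 FPKM. The part of these cells in the collagen differences was not tested.

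Differences by library number were larger than those by genotype for several chains. Limma called 1 of 10 chains, Col9a2, at 0.46 ± 0.11 higher in number 2 (log2, adjusted p = 0.0378), beside the 20.7% of all genes tested given above. Col3a1 stood at 0.41 ± 0.12 (adjusted p = 0.0568) and Col4a2 at -0.35 ± 0.14 (adjusted p = 0.132). Leaving out any single library, limma called 0 chains between numbers. Among the 33 chains, 15 were higher and 5 lower in number 2 without overlap, together near the 63.8% of genes with such reads whose numbers did not overlap. Of 9 fibril-forming chains 0 were lower and 6 higher in number 2 without overlap, namely Col1a1, Col1a2, Col3a1, Col5a1, Col5a2 and Col11a1. Over the 16900 genes with such reads, 5473 were higher and 5314 lower in number 2 without overlap. The acinar sum ran the other way, at 3844, 796, 5236 and 1417 FPKM, higher in number 1 in both genotypes, and its part in the collagen values was not tested.

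The enzymes and helpers that build collagen showed no called gene either. Of 26 listed processing genes 17 were compared, and limma called 0, with 13 positive and 4 negative values and a median of 0.086 against 0.012 over all genes. P3h1, which hydroxylates prolines of collagen chains, had 6.08, 5.88, 8.15 and 6.77 FPKM (0.27 ± 0.14, log2, SE). Bmp1, which cuts the end of procollagen, had 11.7, 12.2, 14.4 and 13.3 (0.20 ± 0.13). Both had each transgenic value above each wild-type value, as had 12.2% of all genes tested. They were named for a small p in this list, a choice that favours genes without overlap. Creb3l1, a membrane-bound factor that induces collagen genes, had 20.4, 11.2, 25.3 and 18.8 FPKM (0.50 ± 0.33), high in number 1 in both genotypes.

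Collagen receptors, breakdown enzymes and cross-linkers completed the pathway. Of 10 receptors 4 were compared and 0 called, with 2 positive and 2 negative. Ddr1, a receptor kinase that binds collagen, had 24.5, 28.0, 33.5 and 31.5 FPKM (0.30 ± 0.16), above wild type in both transgenic libraries, and Itgb1, the common beta chain of collagen-binding integrins, had 46.6, 61.7, 44.1 and 58.1 (-0.082 ± 0.24). Of 9 breakdown genes 3 were compared and 0 called, all positive, and Timp3, an inhibitor of matrix proteases, had 12.2, 6.71, 12.9 and 6.97 FPKM, higher in number 1 in both genotypes. A list of 18 cross-linking genes and other miR-29 targets also held the DNA-modifying enzymes Dnmt3a, Dnmt3b and Tet1, which are no matrix genes. Of the 18, 7 were compared, Dnmt3a and Dnmt3b among them, and 0 called, with 6 positive and 1 negative. The negative value was that of Dnmt3a (-0.034 ± 0.14). Loxl2, a lysyl oxidase that cross-links collagen, had 2.57, 2.85, 2.99 and 3.10 FPKM (0.13 ± 0.13), and Sparc, a collagen-binding matrix protein, had 14.6, 14.6, 16.5 and 14.2 (0.064 ± 0.15). Of these named genes Ddr1 and Loxl2 were higher without overlap in transgenic islets, as were 12.2% of all genes tested. They were named for a small p in their list, a choice that favours genes without overlap.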

How the data were processed

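Trizol RNA of frozen islets went into Illumina TruSeq libraries, per the labels' protocols. The authors deposited FPKM per gene with gene lengths; HTSeq 0.6.0 and GRCm38 are named in the submitters' processing notes, while aligner and strand setting are not given in the sources used here. Since strand is not given, reads of overlapping genes cannot be told apart, which touches at most 6.07% of a chain's exon bases. FPKM times length gave whole reads for 100% of values, within 0.001 of a whole number. The 12716 genes that reached 1 FPKM in 2 or more libraries were fitted with limma 3.58.1 in R 4.3.3 (trend, 2-sided, log2(FPKM + 1), which understates low genes), with Benjamini-Hochberg adjustment over all of them. A gene with 0 reads may have up to 3. Members with a mean of at least 1 FPKM, and all chains of types I, III and IV, were named. Other named chains were chosen after their values were seen. Genes of the pathway lists given with values were among the 4 with the smallest p. Dnmt3a, given as the negative value of its list, was an exception. The members, lists and tests were chosen with earlier results of these data known. GENCODE M21 gave UTRs of at least 50 bases and GC content. Alternatives included other filters, pseudocounts and scaling, voom on reads, a lowess GC curve (span 0.3) and leaving out each library. The fits were also run on simulated counts with 2-fold changes, larger than the fold changes of the chains tested. That run does not show how well differences of the size given here would be found.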

Additional observations from a re-analysis of the deposited data

How the results depend on the processing

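The libraries share numbers across genotypes, and the labels do not say that a number pairs them; deviations of same-numbered libraries correlated at 0.775 and the first principal component held 77.9% of the variance. With the replicate block in limma 0 genes were called between genotypes. In voom on reads the block gave 238 genes, 111 with the GC curve removed, and 215 with at least 10 reads (chosen after seeing the data). The block in voom called 1 chain, Col27a1 (0.38, adjusted p = 0.0460), but 0 once GC was removed or at least 10 reads were required. Between numbers, genes called were 274 with no filter, 5545 in voom with genotype as a term, 5871 in that fit over the 16900 genes with at least 10 reads, and 835 to 1822 leaving out each library, against 2630. Chains called between numbers were 2 in limma with genotype as a term, 2 with at least 10 reads, 2 in voom, 4 in voom with genotype as a term, 6 in that fit over the 33 chains with at least 10 reads, and 0 with no filter, with FPKM of at least 5 or leaving out each library. The chain median of 0.15 was 0.013 with no filter, 0.039 with at least 10 reads, and 0.11 to 0.20 leaving out each library. These are on log2(FPKM + 1), which understates low genes, as many of the added chains are. In voom with the block the median was 0.19, and 0.18 for the 33 chains with at least 10 reads. With the GC curve removed as well it was 0.054 for the 10 chains. The type IV over fibril-forming ratio was 0.884 to 1.12 leaving out each library. Of single chains, Col9a2 was -0.038 in voom and -0.20 with the GC curve removed, where Col11a2 was -0.075 and Col20a1 -0.10. Leaving out 1 library gave -0.096 to 0.26 for Col6a6, -0.10 to 0.16 for Col20a1 (also -0.085), -0.13 to 0.34 for Col3a1 (also -0.074) and -0.25 to 0.27 for Col9a2 (also -0.19). Among the remaining values of single chains under an alternative, 121 kept direction and call, though not size. In voom with the block, the GC curve took Col4a1 from 0.19 to 0.015 and Col4a2 from 0.30 to 0.074. The cause of these shifts was not tested. Low levels let 10 of 44 chains into the test, and 11 had too few reads for any comparison.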
